A study of Rattus norvegicus with 4 samples.

Results

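The 30 genes described here are markers of astrocytes, and their transcripts were measured in cultured rat OPCs (oligodendrocyte precursor cells, which divide and give rise to the cells that make myelin). The members were a list of gene symbols chosen with earlier results of these data known. Their probes were found through the RefSeq accession that the array files give for each probe. A named probe was found for 29 of the 30, and Hepacam was not measured here. For 27 of them the brightest probe (highest mean over the 4 arrays) carried the scanner software's flag for a signal well above background on 2 or more arrays, and these 27 were tested among 23153 features in all. The other 2, Gjb6 and Slc14a1, were well above background on 0 arrays.

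The OPCs were taken from rat cortex at postnatal day 2 and grown for 3 days with bFGF and PDGF. They then received, by lipid transfection at 50 nM, either a synthetic copy of a microRNA, miR-125a-3p, or a negative control RNA, and total RNA was collected 48 h later. The labels list these cells as 2 days in vitro and as oligodendrocytes, and name no strain or sex. The groups, miR-neg and miR-125a-3p, hold 2 samples each with 1 single-colour Agilent array per sample. The samples of a condition are called independent, but the labels do not say that the animals or cultures were separate, so the p-values rest on the spread among these 4 samples, which may be technical. The series set out to measure expression after this microRNA was raised, and the only comparison is miR-125a-3p against miR-neg.

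Astrocytes are the glia that take up glutamate and potassium, move water and ions at blood vessels and couple to each other through gap junctions. Their markers are genes for these tasks, together with enzymes, secreted lipoproteins and the intermediate filament protein GFAP. Astrocytes and OPCs arise from related progenitors and share part of their expressed genes, so some genes used as astrocyte markers are also active in the oligodendrocyte lineage. Neonatal OPC cultures can also contain some astrocytes. In RNA from whole cultures, a change in the number of cells of a type and a change in RNA per cell cannot be told apart.

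The microRNA is shown because it is the agent compared. The rat mature form in RefSeq lies at chr1:67350727-67350748 on the + strand of GRCr8, and the sequence of the mimic itself is not given in the sources used here. The capitals mark the seed, bases 2 to 8, whose complement in a transcript reads TCACCTG. Transcript ends were not searched for it here.
rno-miR-125a-3p: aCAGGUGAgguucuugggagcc

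After the mimic, most astrocyte markers lay higher. Aldh1l1, the folate enzyme widely used to mark astrocytes, rose 3.72-fold, and Pla2g7, a secreted phospholipase that hydrolyses platelet-activating factor, rose 3.2-fold. The other 25 of the 27 did not pass an adjusted p of 0.05 in limma, where 0.682% of all features passed and 0.376% passed as higher and 0.307% as lower. Of the 27, 23 had a log2 difference above 0 (background 53%), and the median over the 27 was 0.36 against 0.01 over all features. In 20 genes both miR-125a-3p arrays lay above both miR-neg arrays (background 29%), in 3 both lay below (background 23.9%) and in 4 the groups overlapped. An unadjusted p under 0.05 was reached by 15 genes in the higher direction (background 10.7%) and by 1 in the lower direction (background 8.84%). Since the list was chosen with earlier results of these data known, these counts beside the backgrounds are a description. With the replicate number as a block, which on this slide is also a position axis, no feature passed (3946 had an unadjusted p under 0.05), and Aldh1l1 and Pla2g7 each had an adjusted p of 0.0791 in limma.

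**Figure D1:**
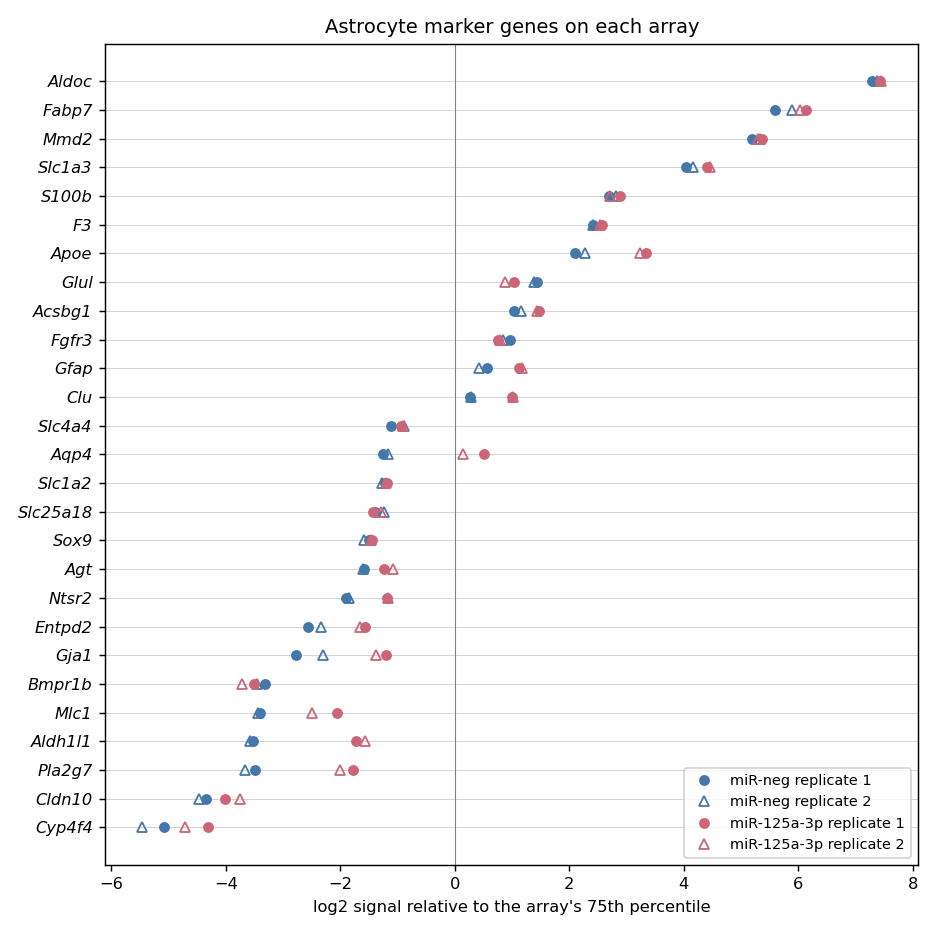
Level of the 27 tested astrocyte markers on each of the 4 arrays, as log2 signal relative to the array's 75th percentile, ordered by the mean of the miR-neg arrays. Circles are replicate 1 and triangles replicate 2; for Aldh1l1, Pla2g7, Aqp4, Gja1 and Mlc1 the miR-125a-3p arrays stand clear to the right of the miR-neg arrays, and for Glul they stand to the left.

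The enzymes included the clearest increase. Levels here are log2 signals relative to the 75th percentile of the array, so a level of 0 is a probe at that percentile. Aldh1l1 stood at -3.52 and -3.58 on the miR-neg arrays and at -1.73 and -1.58 on the miR-125a-3p arrays. The groups were far apart compared with the distance between the arrays of a group, and Aldh1l1 rose by 1.90 on the log2 scale (SE 0.09, n = 2 per group, limma adjusted p = 0.036, or 0.0791 with the replicate block). Acsbg1, which activates long-chain fatty acids, was at 1.10 ± 0.10 in miR-neg and 1.45 ± 0.03 in miR-125a-3p (SD, n = 2 each). Its groups did not overlap, as in 29% of all features in the higher direction, and it did not pass in limma (log2 difference 0.36, adjusted p = 0.159). Aldoc, the brain aldolase of glycolysis and the brightest probe of all the members, had a log2 difference of 0.10 (SE 0.08). Cyp4f4, a cytochrome P450 that oxidises fatty acids, was the dimmest tested probe, well above background on 1 miR-neg array and on both miR-125a-3p arrays. Its levels were -5.08 and -5.46 against -4.31 and -4.71, and its log2 difference of 0.76 was 0.14 in the normexp setting, which starts from median spot signals in place of the processed ones and corrects the background with an added offset.

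Among the genes for water, ion and junctional transport, all 5 that were tested lay above 0, with a median log2 difference of 1.15 (0.60 with normexp). Aqp4, the water channel of astrocyte endfeet, stood at -1.25 and -1.17 in miR-neg and at 0.50 and 0.14 in miR-125a-3p. Gja1, the gap junction protein connexin 43, stood at -2.78 and -2.30 against -1.20 and -1.37. Mlc1, a membrane protein of astrocyte junctions near vessels, stood at -3.40 and -3.44 against -2.05 and -2.49. In each of these 3 genes the groups did not overlap and the mimic arrays were the higher ones, as in 29% of all features, but none passed in limma. Their log2 differences were 1.53 (SE 0.15, adjusted p = 0.0537) for Aqp4, 1.26 (SE 0.19, adjusted p = 0.0844) for Gja1 and 1.15 (SE 0.17, adjusted p = 0.0843) for Mlc1. The tight junction gene Cldn10 was dim, at -4.41 ± 0.08 and -3.88 ± 0.18 (SD, n = 2 each), and its log2 difference of 0.53 became 0.14 with normexp. Slc4a4, a sodium-bicarbonate cotransporter, overlapped between groups (log2 difference 0.08). The processed signals of the connexin gene Gjb6 were 5.76 and 5.09 in miR-neg and 6.86 and 7.12 in miR-125a-3p. Those of the urea transporter gene Slc14a1 were 5.05 and 5.57 against 3.67 and 8.94. Neither gene was well above background on any array, so no change is given for them.

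All 6 secreted and cell-surface members had both miR-125a-3p arrays above both miR-neg arrays, as in 29% of all features, with a median log2 difference of 0.78. Pla2g7 had processed signals, before scaling, of 66.8 and 53.9 in miR-neg and of 204 and 179 in miR-125a-3p. The mimic arrays were well above the control arrays, and Pla2g7 rose by 1.68 on the log2 scale (SE 0.12, n = 2 per group, limma adjusted p = 0.0384, or 0.0791 with the replicate block). Apoe, the main lipid-carrying apolipoprotein of the brain, was bright in the controls, at 2.11 and 2.28, and stood at 3.35 and 3.23 after the mimic. Its log2 difference of 1.10 (SE 0.10) missed the threshold in limma (adjusted p = 0.052) and was nearly as large with normexp, at 1.07. The secreted chaperone gene Clu had close replicates, at 0.26 and 0.29 against 0.99 and 1.02 (log2 difference 0.73, limma adjusted p = 0.0541). Entpd2, an ectonucleotidase that breaks down extracellular ATP, differed by 0.83 (SE 0.11, limma adjusted p = 0.0752). The angiotensinogen gene Agt differed by 0.43 (SE 0.09) and F3, the coagulation tissue factor, by 0.14 (SE 0.07).

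The genes for handling glutamate lay on both sides of 0, with a median log2 difference of 0.01 over 4 members. Glul, glutamine synthetase, which turns glutamate into glutamine, stood at 1.44 and 1.39 in miR-neg and at 1.03 and 0.88 in miR-125a-3p. Both mimic arrays were lower, with a log2 difference of -0.46 (SE 0.09), the most negative difference among the 27, and it did not pass in limma (adjusted p = 0.119). Slc1a3, the glutamate transporter GLAST, differed by 0.32 (SE 0.09) and its second probe by 0.28. Slc1a2, the glutamate transporter GLT-1, was at -1.25 ± 0.03 and -1.19 ± 0.02 (SD, n = 2 each). Slc25a18, a mitochondrial glutamate carrier, overlapped between groups with a log2 difference of -0.04.

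The membrane receptors were split. Ntsr2, a neurotensin receptor, stood at -1.89 and -1.84 in miR-neg and at -1.19 and -1.16 in miR-125a-3p, a log2 difference of 0.69 (SE 0.08, limma adjusted p = 0.0606). Its second probe, also well above background on all 4 arrays, differed by 0.99. The BMP receptor gene Bmpr1b and the FGF receptor gene Fgfr3 were lower without overlap, as were 23.9% of all features. Their log2 differences were small, at -0.23 (SE 0.11) and -0.13 (SE 0.08). Mmd2, which encodes a membrane protein of the progestin and adipoQ receptor family, overlapped between groups (0.07).

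Of the intracellular members, Gfap, the intermediate filament protein that defines astrocytes in staining, stood at 0.56 and 0.42 in miR-neg and at 1.12 and 1.18 in miR-125a-3p. It was well above background on all 4 arrays, controls included, and the mimic arrays were higher by 0.66 (SE 0.09, limma adjusted p = 0.0766). Fabp7, a fatty acid binding protein of radial glia and young astrocytes, differed by 0.35 with a wider gap between its control arrays (SD 0.21, n = 2). S100b, a calcium-binding protein, overlapped between groups (0.04). Sox9, a transcription factor of glial progenitors and astrocytes, differed by 0.09 at its brightest probe, while its 3 dimmer probes gave 0.61, -0.32 and 0.85.

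**Figure D2:**
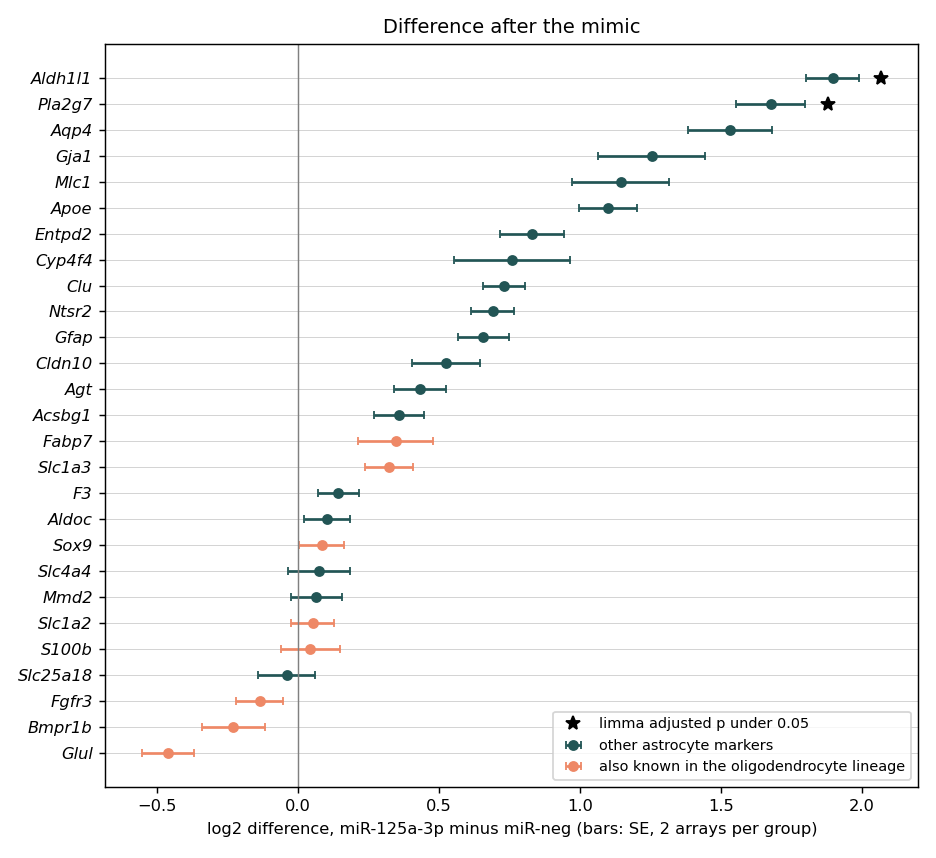
Log2 difference between miR-125a-3p and miR-neg (horizontal axis) for the 27 tested astrocyte markers, with the standard error from limma as bars and 2 arrays per group. Stars mark Aldh1l1 and Pla2g7, the genes that passed; the 8 genes also known in the oligodendrocyte lineage (orange) lie between -0.46 and 0.35, and the 19 others (dark green) between -0.04 and 1.90.

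The members were divided by whether they are commonly described in OPCs or oligodendrocytes as well as in astrocytes. The genes counted as shared were Slc1a2, Slc1a3, Glul, Sox9, Fabp7, S100b, Fgfr3, Bmpr1b and Hepacam, from general knowledge of the lineage and not from these data. The 8 measured ones had a median log2 difference of 0.05, near the 0.01 over all features. In 4 of them the miR-125a-3p arrays lay above the miR-neg arrays (29% of all features) and in 3 below (23.9%). In limma 0 passed, with 1 higher and 1 lower at an unadjusted p under 0.05. The 19 other members had a median of 0.69, 18 lay above 0, in 16 the groups were separated in the higher direction (29% of all features), and 2 passed (0.376%). Each of the 6 members with a difference over 1 was in this second set, against a background of 1.18% of features. The split was made with the changes of Aldh1l1, Aqp4, Apoe and Clu already known, so the gap between both medians is a description. It was 0.52 against 0.05 with normexp. Within the second set, F3, Aldoc, Slc4a4, Mmd2 and Slc25a18 had differences between -0.04 and 0.14, so a gene outside the shared list did not always differ.

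Among the members, larger differences were found mostly at dim control levels. The median was highest in the range from -4 to -2 (1.20), and the 2 members under -4 came next (0.64). A dim probe can reflect a rare transcript or a probe that binds weakly, so brightness is a property of the probe. Across the 27 members, the log2 difference and the control level had a Pearson correlation of -0.43 and a Spearman correlation of -0.46, against -0.10 and -0.08 across all features. Genes on the same arrays are not independent, and the control level enters both quantities. Taking the level from 1 replicate number and the difference from the other gave Spearman correlations of -0.48 and -0.37. The relation was -0.57 among the 19 members outside the shared list and 0.50 among the 8 shared ones (Spearman). With the normexp differences it was -0.20 over the 27 members, -0.22 over the 19 and 0.12 over all features.

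Of the 6 members with a control level from -4 to -2, Aldh1l1, Pla2g7, Gja1 and Mlc1 differed by more than 1, where 1.20% of features in that range did. Entpd2 followed, and Bmpr1b, at a control level of -3.38, was the 1 member of this range below 0. Among the 12 members at a level of 0 or over, Apoe alone differed by more than 1, where 0.0502% of features did, and Clu, Gfap and Acsbg1 came next. Cyp4f4 and Cldn10, the 2 members under -4, had a median of 0.64 and neither was over 1, while 4.55% of features there were. The members' medians were 1.20 in the range from -4 to -2, 0.09 from -2 to 0 and 0.23 at 0 and over, beside 0.00, 0.02 and 0.01 for all features, and 0.07 for those under -4. Brightness and sharing overlapped, since 5 of the 8 shared members were in the brightest range.

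**Figure D3:**
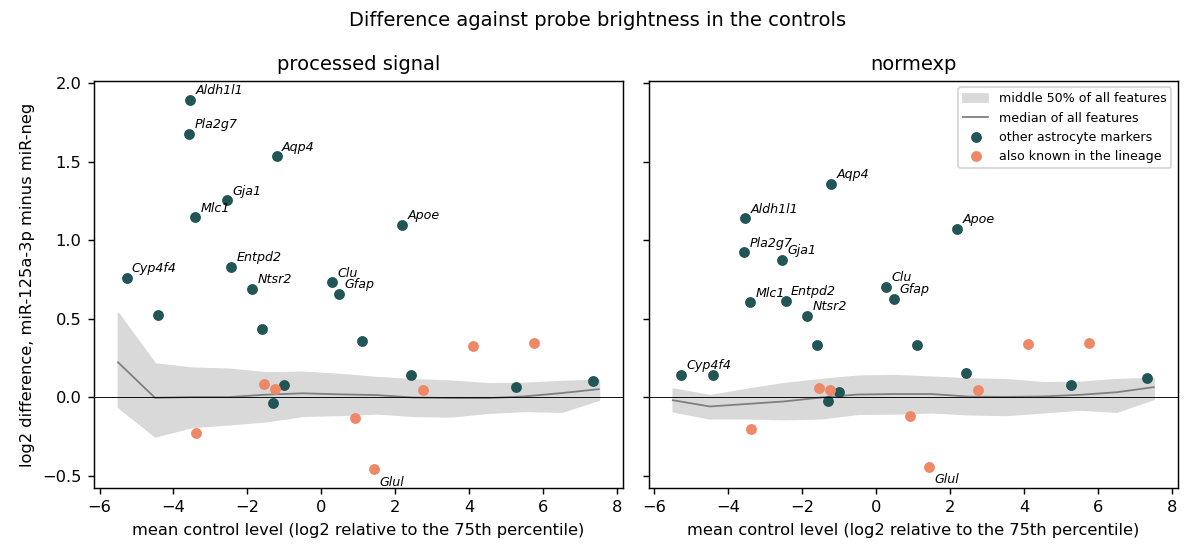
Log2 difference of each astrocyte marker (vertical axis) against its mean level in the miR-neg arrays (horizontal axis), with the processed signal (left) and with normexp background correction (right). The grey band is the middle 50% of all features per unit of control level; Aldh1l1 falls from 1.90 to 1.14 and Pla2g7 from 1.68 to 0.92 with normexp, while Apoe (1.10 and 1.07) and Glul (-0.46 and -0.45) barely move.

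With normexp, 13 of the 27 members were higher and 1, Glul, was lower at an adjusted p under 0.05 in limma, where 7.16% of features passed 3.32% passed as higher and 3.84% as lower. The added calls were Aqp4 (1.36), Apoe (1.07), Gja1 (0.88), Clu (0.70), Gfap (0.63), Entpd2 (0.62), Mlc1 (0.60), Ntsr2 (0.52), Slc1a3 (0.34), Agt (0.33) and Acsbg1 (0.33). The calls on Aldh1l1 and Pla2g7 were lost without miR-neg replicate 1, without miR-neg replicate 2, without miR-125a-3p replicate 1, without miR-125a-3p replicate 2, with the replicate number as a block, and with no filter on dim probes (adjusted p = 0.229 for both in limma). Their log2 differences then stayed between 1.82 and 1.97 for Aldh1l1 and between 1.57 and 1.79 for Pla2g7 over the arrays left out.

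Promoter sequence is shown for Aldh1l1, Pla2g7, Gja1, Mlc1 and Ntsr2, members with some of the larger differences. RefSeq gave entries for 24 of the 30 members on GRCr8, and Agt, Bmpr1b, Clu, Cyp4f4, F3 and Sox9 were without one. The 250 bases before each start were searched on both strands for 5 motifs, picked with the members' values known. The STAT motif TTCNNNGAA was in 2 of the 24 genes, Acsbg1 and Ntsr2, and in 8.19% of all genes of the table. The AP-1 motif TGANTCA was in 3, Entpd2, Gja1 and Pla2g7 (6.99% of all genes). The NFI single site TTGGCA was in 8, Apoe, Gjb6, Glul, Mlc1, Mmd2, S100b, Slc14a1 and Slc1a3 (12.7%), and the full NFI palindrome, which overlaps it in its first letters, was in 0 (0.0401%). The SOX motif ACAAAG was in 5, Aqp4, Gjb6, Mlc1, Slc1a3 and Slc25a18 (17.2%). A match is a description of letters and not of a bound site. The windows lie at chr4:124616970-124617219 (+) for Aldh1l1, chr9:24901748-24901997 (-) for Pla2g7, chr20:36302314-36302563 (+) for Gja1, chr7:121946699-121946948 (-) for Mlc1 and chr6:45152845-45153094 (+) for Ntsr2. They read 5′ to 3′ toward the gene, and capitals mark the motif matches.
Aldh1l1: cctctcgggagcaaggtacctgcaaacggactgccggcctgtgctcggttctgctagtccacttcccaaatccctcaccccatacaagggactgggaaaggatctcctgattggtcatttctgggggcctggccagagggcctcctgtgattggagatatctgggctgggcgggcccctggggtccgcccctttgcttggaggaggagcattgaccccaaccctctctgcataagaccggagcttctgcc
Pla2g7: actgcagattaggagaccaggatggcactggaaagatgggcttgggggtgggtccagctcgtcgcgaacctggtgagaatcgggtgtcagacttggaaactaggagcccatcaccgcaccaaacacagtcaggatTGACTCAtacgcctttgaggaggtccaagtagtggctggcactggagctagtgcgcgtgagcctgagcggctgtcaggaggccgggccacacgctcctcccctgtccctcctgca
Gja1: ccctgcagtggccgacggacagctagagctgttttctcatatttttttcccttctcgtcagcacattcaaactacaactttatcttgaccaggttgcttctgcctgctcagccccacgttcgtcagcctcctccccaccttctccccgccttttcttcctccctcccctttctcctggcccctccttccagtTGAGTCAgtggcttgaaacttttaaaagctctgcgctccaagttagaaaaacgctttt
Mlc1: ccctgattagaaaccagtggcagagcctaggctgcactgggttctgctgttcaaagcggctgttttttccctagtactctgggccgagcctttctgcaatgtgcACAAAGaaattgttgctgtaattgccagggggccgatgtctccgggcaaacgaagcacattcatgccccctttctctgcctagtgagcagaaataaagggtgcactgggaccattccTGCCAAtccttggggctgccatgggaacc
Ntsr2: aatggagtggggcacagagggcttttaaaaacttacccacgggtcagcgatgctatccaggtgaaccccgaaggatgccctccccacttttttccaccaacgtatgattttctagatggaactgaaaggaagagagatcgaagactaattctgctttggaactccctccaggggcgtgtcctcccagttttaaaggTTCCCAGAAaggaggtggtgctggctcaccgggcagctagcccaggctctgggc
Aldh1l1, the member with the largest difference, held 0 matches to these 5 motifs in this window. The AP-1 match of Pla2g7 began 115 bases and that of Gja1 58 bases before the start. Mlc1 held an NFI single site 29 bases and a SOX match 146 bases before the start, and the STAT match of Ntsr2 lay 54 bases before it.

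A wider list of 50 astrocyte-enriched genes outside the 30 had a smaller median difference than the members. Of the 41 that were tested, 31 lay above 0 (53% of all features), and the median log2 difference was 0.16 (0.10 with normexp). In limma 2 passed as higher (0.376% of all features) and 1 as lower (0.307%). At an unadjusted p under 0.05 there were 13 higher (10.7% of all features) and 7 lower (8.84%), and with normexp 9 passed as higher (3.32%) and 5 as lower (3.84%). No call on a gene outside the members held with the replicate block, where the smallest adjusted p of any feature was 0.0791. Aldh1a1, a retinal dehydrogenase, rose by 1.67 (SE 0.10, adjusted p = 0.0382) and Sdc4, a heparan sulfate proteoglycan of focal adhesions, rose from -3.22 ± 0.14 to -1.72 ± 0.05 (SD, n = 2 each, limma adjusted p = 0.0384). Htra1, a secreted serine protease, fell by 1.73 (SE 0.12, adjusted p = 0.0384). The groups were separated in the higher direction in 20 genes (29% of all features) and in the lower direction in 8 (23.9%). In this list Axl, Chrdl1, Dao, Dio2, Etnppl, Gldc and Grm3 were well above background on 0 arrays.

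Regulators of astrocyte formation were examined as a list of 40 genes, covering the gp130-STAT, BMP and Notch pathways, the NFI factors and the progenitor filaments Vim and Nes. In limma, 0 of the 37 tested passed, with 2 higher (10.7% of all features) and 4 lower (8.84%) at an unadjusted p under 0.05. With normexp 1 passed as higher (3.32%) and 1 as lower (3.84%). The median log2 difference was -0.01, and 18 lay above 0 (53% of all features). The cytokine gene Lif (0.47, SE 0.11) and the BMP-induced gene Id1 (0.34, SE 0.11) had the smallest p on the higher side. The Notch ligand gene Jag1 (-0.45, SE 0.12) and the NFI factor gene Nfix (-0.39, SE 0.12) had the smallest on the lower side. Adjusted p-values of these 4 in limma lay between 0.156 and 0.214. Id3 and Dnmt1 were well above background on 0 arrays.

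Markers of other cells were counted beside the astrocyte genes. The OPC markers were present, since 19 of the 19 measured were well above background on all 4 arrays. Their median log2 difference was 0.08, and 0 passed in limma. At an unadjusted p under 0.05, 2 were higher (10.7% of all features) and 4 lower (8.84%). Pdgfra (-0.37, SE 0.08), Neu4 (0.38, SE 0.09) and Matn4 (0.39, SE 0.09) had the smallest p. With normexp 2 of the 19 OPC markers passed as higher (3.32%) and 2 as lower (3.84%). Summed over the list, in multiples of the array's 75th percentile, their signal was 734 to 796 in miR-neg and 702 to 723 in miR-125a-3p. Such a sum is carried by a few bright probes, so it was also taken without the 3 probes brightest in the controls, and it then overlapped between groups (266 to 289 and 267 to 272). The 13 tested myelin genes had a median of -0.64, and 12 lay below 0. In limma 1 passed as lower (0.307% of all features), Aspa, which cleaves N-acetylaspartate and fell by 1.55 (SE 0.12, adjusted p = 0.0415). At an unadjusted p under 0.05, 10 of the 13 were lower (8.84% of all features) and 0 higher (10.7%). In 11 of these genes the groups were separated in the lower direction (23.9% of all features), and with normexp 9 passed as lower (3.84%). Their summed signal was 936 to 964 in miR-neg and 639 to 657 in miR-125a-3p. The summed signal of the 29 measured astrocyte markers was 287 to 314 in miR-neg and 340 to 345 in miR-125a-3p. Aldoc, Fabp7 and Mmd2 made up 84.4% of it in the controls, and without them it was 45.5 to 48.0 and 59.7 to 61.3.

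Microglia markers also lay mostly higher after the mimic. Of the 15 tested, 13 lay above 0 (53% of all features), and the median log2 difference was 0.53 (0.21 with normexp). In limma 1 passed as higher (0.376%), C1qa, a complement subunit made by microglia, which rose by 1.45 (SE 0.10, adjusted p = 0.0384). By contrast, Cd68 (-0.28) and Cx3cr1 (-0.06) lay below 0, and P2ry12 (0.00) and Itgam (0.10) lay close to it. At an unadjusted p under 0.05, 10 of the 15 were higher and 0 lower. A log2 difference over 1 was found in 7, and with normexp 7 passed as higher. The 10 included C1qc (1.68) and Cd14 (0.53), each well above background on only 2 arrays, and C1qc was also among those over 1. The differences of C1qc and Cd14 thus rest partly on signals not well above background. The summed signal of the microglia markers was 13.0 to 14.5 in miR-neg and 15.5 to 16.3 in miR-125a-3p. Ptprc was well above background on 0 arrays, and Csf1r and Ctss on fewer than 2. Apoe is also known from microglia, which the array cannot separate from astrocytes. Of 11 tested mesenchymal and endothelial markers, 9 lay above 0 (53% of all features), with a median of 0.39 (0.17 with normexp). In limma 1 passed as higher (0.376%), Tagln, which encodes the smooth muscle protein transgelin and rose by 1.21 (SE 0.08, adjusted p = 0.0384). At an unadjusted p under 0.05, 5 were higher and 0 lower, 3 had a log2 difference over 1, and with normexp 3 passed as higher. The 5 included Pdgfrb (0.92), which was well above background on only 2 arrays. The summed signal of the mesenchymal and endothelial markers was 29.5 to 32.2 in miR-neg and 31.7 to 37.9 in miR-125a-3p. However, 87.1% of this sum in the controls was Cspg4, which is also an OPC marker. Without Cspg4, Vwf and Kdr it was 0.74 to 0.78 and 1.15 to 1.30. In this list Dcn, Lum and Pecam1 were well above background on 0 arrays. The 13 tested neuron markers had a median of 0.08, and 0 passed in limma. Of them, 3 had an unadjusted p under 0.05, all higher (10.7% of all features). These were Snap25 (0.48, SE 0.08), Reln (0.77, SE 0.14) and Stmn2 (0.26, SE 0.07). With normexp 2 of the 13 neuron markers passed, both higher (3.32%). Their summed signal was 27.1 to 27.9 against 31.0 to 31.3 (7.86 to 8.17 and 9.14 to 10.3 without Dcx, Map2 and Elavl4). Slc17a6 and Slc17a7 were well above background on 0 arrays. The part of these other cells in the astrocyte result was not tested.

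**Figure D4:**
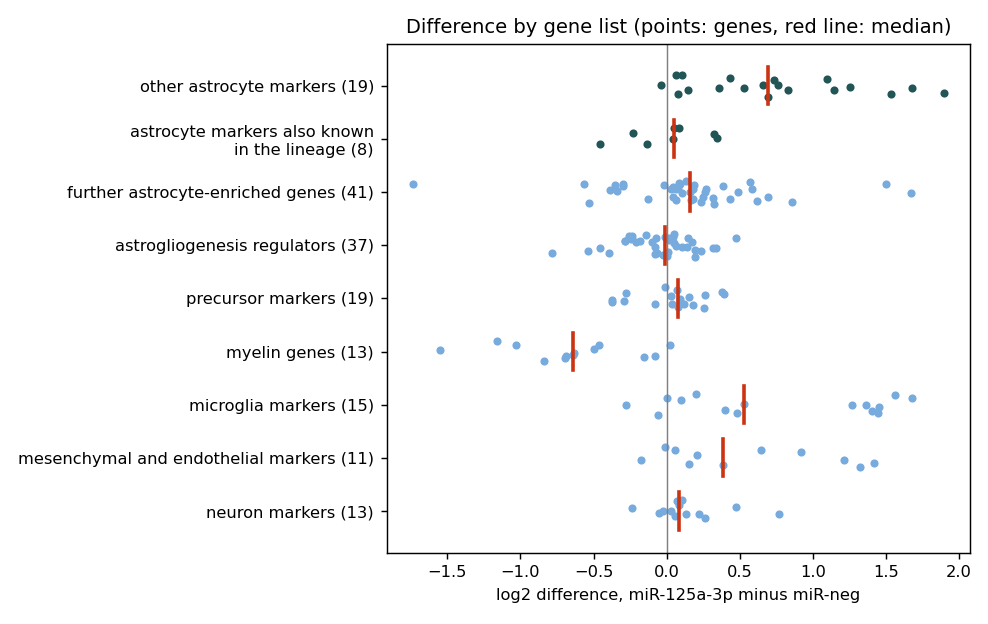
Log2 difference between miR-125a-3p and miR-neg (horizontal axis) for each tested gene, by list, with the number of genes in parentheses and the median as a red line. The 19 astrocyte markers outside the shared list have the highest median (0.69), the myelin genes the lowest (-0.64), and the shared astrocyte markers (0.05) and the precursor markers (0.08) lie near 0. The medians of the microglia markers (0.53) and of the mesenchymal and endothelial markers (0.39) are also above 0. All 27 tested members together, not drawn as a row, have a median of 0.36.

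The arrays were similar in depth. The 75th percentile of the processed signal lay between 681 and 746, 26332 to 28138 probes were well above background per array, and 0 spots were saturated. All 4 arrays came from 1 slide, and arrays of 1 group shared a position along 1 axis of it, so the effects of position and of the mimic cannot be told apart. Between arrays of a group, the members' levels differed by a median of 0.12 (miR-neg) and 0.10 (miR-125a-3p) on the log2 scale, as did those of all features (0.13 and 0.10).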

How the data were processed

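RNA from 4 samples was measured on single-colour Agilent arrays (design annotated on rn4). Per the file headers, the deposited processed intensity of each spot was background-subtracted and detrended within its array by Agilent Feature Extraction 10.7.3.1 (100 ng of RNA was labelled, per the labels). The authors' deposited table holds log2 values. Within 0.01, they equal the log2 processed intensity minus a constant per array, for 100% of the probes kept, and its columns have medians from -4.13 to -4.06, so its scale, centring and direction are known.

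Control and flagged spots were left out, spots of a probe were averaged as log2, and the 75th percentile of each array was taken off. The files hold no gene names, so RefSeq accessions were matched to symbols of the GRCr8 table, which named 21109 of 45598 probes (46.3%). 65 probes were left out for flagged spots. The brightest probe stood for its gene and was kept where well above background on at least 2 of 4 arrays. A linear model with moderated variances was fitted to all 23153 features (limma 3.58.1, R 4.3.3), and two-sided p-values were adjusted by Benjamini and Hochberg's method across these features, with a threshold of 0.05; 158 passed, 87 higher and 71 lower. The script was tested on simulated data. An exact permutation test of 2 against 2 cannot give a p below 0.333. Members, lists and splits were chosen with earlier results of these data known. All 30 members are named, and from each other list the genes that passed or those with the smallest p. Aspa, C1qa and Tagln were thus named for passing. From the microglia list, some members near or below 0 were named as well. From the microglia and mesenchymal lists, the members well above background on only 2 arrays were also named.

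Alternatives were normexp (offset 50) on median spot signals, since the files hold no mean signal, median centring, quantile normalization, other filters, the deposited table, the mean of probes, a variance trend, a replicate block and leaving out each array.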

Additional observations from a re-analysis of the deposited data

How the results depend on the processing

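Normexp on median spot signals and the filter before the choice of the brightest probe were added as settings once the data had been seen. The 158 features became 0 with no filter on dim probes (3963 at an unadjusted p under 0.05 in limma), 601 (281 higher, 320 lower) on probes well above background on all 4 arrays, 1658 (769 and 889) with normexp, 82 (36 and 46) under quantile normalization, 2035 (1020 and 1015) with a variance trend, and 0 with the replicate block (3946 at an unadjusted p under 0.05). It was 0 to 0 with 1 array left out (2765 to 4122 at an unadjusted p under 0.05), where a lone array is assumed to vary like the other group. The count of 2 astrocyte markers became 0 with no filter on dim probes, 10 on probes well above background on all 4 arrays, 14 with normexp, 4 with median centring, 14 with a variance trend and 0 with the replicate block, and 0 to 0 with 1 array left out. With the block, with no filter and with an array left out, 13 to 17 members had an unadjusted p under 0.05. Same-numbered arrays also share a slide position on the other axis, so a block on that axis is the same fit, and their deviations were correlated at 0.0504, which with 2 arrays per group leaves the pairing undecided.

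The number of members above 0 was 20 to 24 of 27 with 1 array left out, 25 of 29 with no filter, 22 of 26 under the strictest filter, and 23 of 27 in the other settings. The median of the 27 members lay between 0.29 and 0.43 with 1 array left out. The median of the shared members was -0.000853 (without miR-125a-3p replicate 1) to 0.0763 (without miR-125a-3p replicate 2). The median of the other members was 0.73 with the mean of the kept probes, 0.52 with normexp and 0.59 to 0.72 with 1 array left out. Over the arrays left out, the log2 difference ran from -0.0416 to 0.131 for S100b, from -0.0431 to 0.194 for Slc4a4, from -0.000238 to 0.133 for Mmd2 and from -0.114 to 0.0362 for Slc25a18, so each of these 4 members changed sign. For these and the other shifts the cause was not tested. Naming by a GeneName column was not run, since RefSeq naming was already the main setting. Dim probes limit what can be read, since the median SD between control arrays was 0.22 at a control level under -4 and 0.06 at 0 and over.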

Other observations

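Of the 27 tested members, 6 had more than 1 named probe. The second probe of S100b gave 0.05 and that of Slc1a3 0.28, close to the brightest probes (0.04 and 0.32). The second probe of Slc4a4, well above background on all 4 arrays but much dimmer, gave 0.41 where the brightest gave 0.08. The dimmer probes of Entpd2, well above background on 0 arrays, gave -0.83 and 0.22 against 0.83 at the brightest.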
